A study of Oncorhynchus mykiss with 18 samples.

Results

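In whole rainbow trout (Oncorhynchus mykiss) alevins, 220 of 79244 quantified transcripts (0.278%) stood highest at the lowest 2 concentrations of 17α-ethinylestradiol (EE2), 1.13 and 1.57 ng/L, and were lower in every library of solvent and of the 3 higher concentrations. EE2 is the synthetic estrogen of contraceptive pills, and alevins are newly hatched fish that still carry their yolk. The 220 were selected on these same libraries by 3 conditions on CPM, a transcript's estimated read count per 1000000 of its library's total. The lowest of the 6 libraries at 1.13 and 1.57 ng/L had to be at least 1.25 times the highest of the other 12 libraries. The mean of the 6 had to be at least 2 CPM, and the mean at 55.1 ng/L at least 0.75 times the solvent mean. The excess at 1.13 and 1.57 ng/L is therefore what chose the transcripts, and it is described here with no test.

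All fish were kept at 14 °C from hatching for 96 h and taken whole at 4 days post-hatch, with RNA extracted from pools of 3 alevins. The 6 groups, with 3 pools each (A, B and C), were a solvent control with 0.01% dimethyl sulfoxide in the water and 5 groups named by the EE2 measured in theirs, with 1.13 and 1.57 ng/L as the low ones and 6.22 ng/L, 16.3 ng/L and 55.1 ng/L above them. The groups share age, temperature and length of exposure, the labels name the solvent for the control, and a higher concentration that the series also names was not analysed here. Whether pools A, B and C of a concentration shared a tank is not stated, so the p-values speak only of variation from pool to pool, part of which may be technical. A whole alevin mixes all tissues, and in such bulk RNA fewer cells of a type and less RNA per cell cannot be told apart.

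The most abundant of the transcripts with a known gene are those of the matrix between cells. Type I collagen is the main fibre of skin, tendon, fins, scales and bone. It is a triple helix built from alpha 1 and alpha 2 chains, and trout also use an alpha 3 chain. Cartilage holds other collagens, such as type IX, which sits on the surface of type II fibres, together with adhesion and linker proteins such as chondroadherin and the matrilins. Insulin-like growth factor binding proteins are secreted proteins that hold growth factors in the blood and in the matrix and change their access to receptors. The textbook targets of EE2 in egg-laying vertebrates are different genes, those of yolk and egg envelope proteins made in the liver under the estrogen receptor. None of the 19 transcripts on the estrogen response list was among the 220, which made up 0.278% of all transcripts. The rule keeps out any transcript that rises further above 1.57 ng/L, so the absence of such genes was set in advance. The egg envelope gene zp2.3 is 1 of them, at 0.0459 CPM in solvent, 43.6 CPM at 1.57 ng/L and 640 CPM at 55.1 ng/L. Only 12 of the 19 passed the filter on low counts.

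Of the 220 transcripts, 208 were predicted protein-coding models, 9 were curated messenger RNAs and 3 were predicted non-coding RNAs. Only 88 matched a gene in the RefSeq table of the trout assembly, each a different gene, and 26 of these have a symbol that is not a locus number. The other 132 are named here by their transcript accession, with no role. With the protein-coding genes of that table ordered by position, no 2 of the 88 genes stood next to each other. The number of pairs to be expected was not counted. The median length of the 220 was 3084 bases, against 2869 for the 36930 transcripts with a mean of at least 2 CPM in the 6 low-concentration libraries.

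The median transcript of the group was 2.33, 2.60 and 2.03 times its solvent mean in pools A, B and C at 1.13 ng/L, and 1.96, 2.02 and 1.94 times at 1.57 ng/L. The same median lay at 0.953, 0.928 and 0.706 at 6.22 ng/L, at 1.11, 1.13 and 1.04 at 16.3 ng/L and at 0.854, 0.938 and 0.782 at 55.1 ng/L. In the solvent pools themselves it was 0.964, 0.976 and 1.06. The 2 low concentrations lie apart from the other 4 groups, as the rule requires. The medians in those 4 groups ran from 0.706 to 1.13. This range is also shaped by the rule, which caps all 12 libraries and sets a lower bound on the mean at 55.1 ng/L. Summed over the group, the transcripts made up 12145 to 17470 CPM in the 6 low-concentration libraries and 4472 to 7704 CPM in the other 12. The mean of the 6 over the mean of the 12 had quartiles of 1.97 and 2.91 over the transcripts, with a median of 2.32. The concentration with the highest mean was 1.13 ng/L for 200 transcripts and 1.57 ng/L for 20. This split rests on file totals, on which 37.3% of all expressed transcripts had a higher mean at 1.57 than at 1.13 ng/L.

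**Figure D1:**
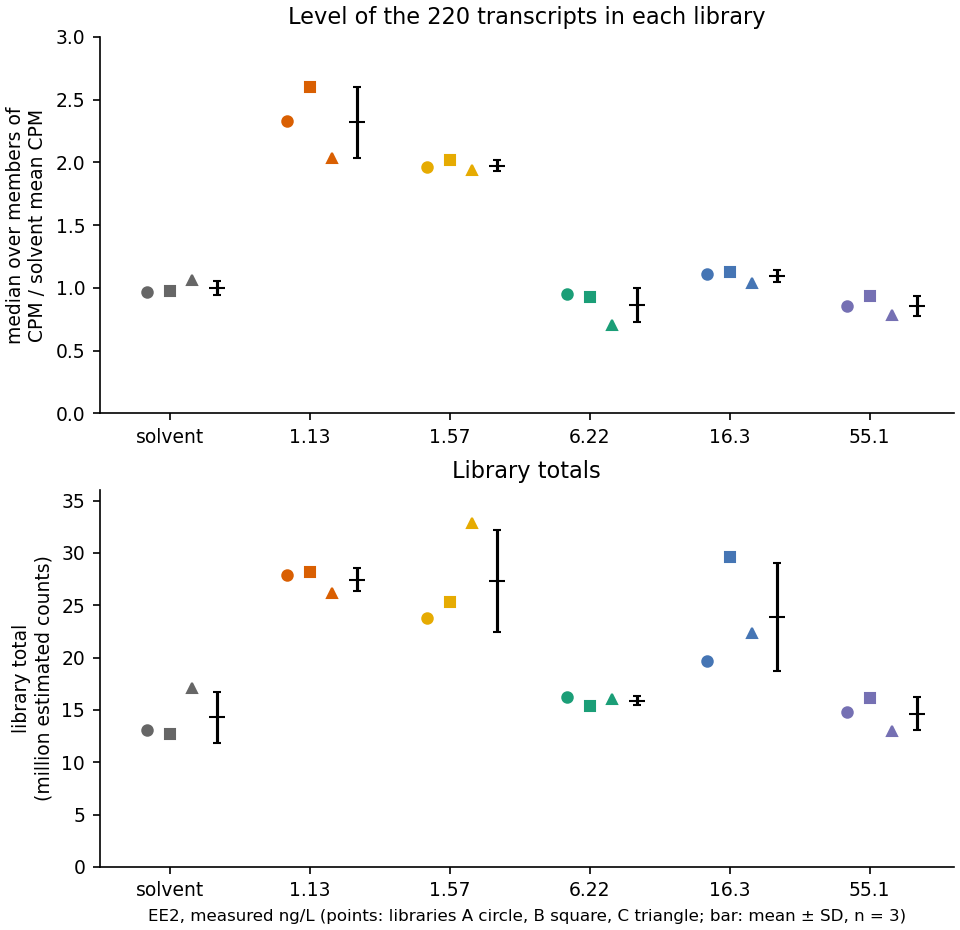
Upper panel, the median over the 220 transcripts of CPM divided by the solvent mean, for each library. Lower panel, each library's total of estimated counts (the axis is in units of 1000000). Points are the 3 pools of a group (circle A, square B, triangle C) and bars are mean ± SD. The medians at 1.13 and 1.57 ng/L run from 1.94 to 2.60 and all others from 0.706 to 1.13, and the totals at 1.13, 1.57 and 16.3 ng/L are the higher ones.

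Traits of the libraries moved with this pattern. Library totals were 26160497 to 28166132 estimated counts for 1.13 ng/L and 23837786 to 32851570 for 1.57 ng/L. They were 12658946 to 17076432 for solvent, 15365201 to 16164585 for 6.22 ng/L and 13013502 to 16122131 for 55.1 ng/L. The 16.3 ng/L libraries were also deep, with 19679734, 29635724 and 22317272, and pool B there was deeper than 5 of the 6 low-concentration libraries. On file totals its median member stood at 1.13 times solvent, and its median expressed transcript at a log2 of -0.29 from solvent. The gap between transcript length and effective length had a median of 218 to 230 bases in the 6 low-concentration libraries and 215 to 221 at 16.3 ng/L, against 172 to 195 in the other 9. That gap lay within 1 base of its library's median for 96.2 to 96.7% of transcripts in the solvent and 55.1 ng/L files and for 0.473 to 0.587% in the other 4 groups. The part of these traits in the excess at 1.13 and 1.57 ng/L was not tested.

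The rule also depends on how libraries are scaled, since a CPM takes a library's whole total as its base. With TMM factors, which put the bulk of transcripts on a common level and ran from 0.856 (16.3 ng/L pool B) to 1.12 (solvent pool A), 101 of the 220 still met the rule. In 216 of the 220 the lowest of the 6 libraries was still above the highest of the 12. The split of 200 against 20 between 1.13 and 1.57 ng/L became 175 against 45 with these factors in edgeR's fit. Without the condition on 55.1 ng/L 430 transcripts qualify, so that condition alone kept out 210 that were equally set apart at 1.13 and 1.57 ng/L but were under 0.75 times solvent at 55.1 ng/L. Just inside the ratio of 1.25 lay si:ch73-22o12.1 at 1.2503 (2.84 CPM in the lowest of the 6 and 2.27 in the highest of the 12), XM_021603100.1 at 1.2512 and XM_021562226.1 at 1.2522. Just outside lay XM_021565715.1 at 1.2491, scinlb at 1.2486 and LOC110491992 at 1.2478.

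Type I collagen gave the most abundant named transcripts of the group. For col1a1, an alpha 1 chain, the solvent pools had 319, 359 and 455 CPM, the pools at 1.13 ng/L 1588, 1835 and 1166 CPM and those at 1.57 ng/L 1242, 1370.0 and 1083 CPM. At the higher concentrations col1a1 stood at 465, 391 and 329 CPM (6.22 ng/L), 463, 636 and 464 CPM (16.3 ng/L) and 304, 363 and 236 CPM (55.1 ng/L). The lowest of the 6 low-concentration pools, 1.57 ng/L pool C, was thus 1.70 times the highest other, 16.3 ng/L pool B. Group means of col1a1 were 377 ± 70.2 CPM in solvent, 1529.8 ± 338 at 1.13 ng/L and 1232 ± 144 at 1.57 ng/L (n = 3, SD), which is 4.05-fold and 3.26-fold the solvent mean.

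The col1a1b transcript, whose gene has the synonym col1a3, had 513, 562 and 724 CPM in solvent, 2082, 2382 and 1550.5 CPM at 1.13 ng/L and 1865, 1926 and 1527 CPM at 1.57 ng/L. At 6.22, then 16.3, then 55.1 ng/L its pools ran over 710.0, 599 and 498 CPM, 728, 1021 and 753 CPM and 472, 620.2 and 377 CPM. The alpha 2 chain, LOC100135811 with the synonym col1a2, had 431, 463 and 588 CPM in solvent, 1767, 1944 and 1327 CPM at 1.13 ng/L, 1509, 1569.9 and 1300.1 CPM at 1.57 ng/L and 329 to 809 CPM over all 12 other libraries. Both followed the order of col1a1, at 3.34 and 2.96 times solvent for col1a1b and 3.4 and 2.96 times for col1a2. Within groups the same pools were high for all 3 chains: pool B was the highest and pool C the lowest at both 1.13 and 1.57 ng/L, and pool B was the highest at 16.3 ng/L. All 3 pools at 16.3 ng/L lay above all 3 solvent pools in each chain, by as little as 728 against 724 CPM in col1a1b. The share of all transcripts with such a separation was not counted, and edgeR called none of the chains there.

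The 3 chains can be compared with each other in TPM, which is scaled to transcript length. Their mean TPM over the 6 low-concentration libraries was 498 for col1a1b, 448 for col1a2 and 347 for col1a1. The TPM ratio of col1a1b to col1a2 was 1.08 to 1.14 in these libraries and 1.04 to 1.16 in the other 12, ranges that overlap fully. The TPM ratio of col1a1 to col1a2 was 0.724 to 0.828 in the 6 and 0.632 to 0.699 in the 12, with no overlap. The share of other transcript pairs with such a separation was not counted. Each chain was chosen for its excess at the 2 low concentrations, so these ratios are a description. Trout carry duplicated copies of many genes, and kallisto can share reads between near-identical copies, so the balance between col1a1 and col1a1b is less certain than their sum.

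**Figure D2:**
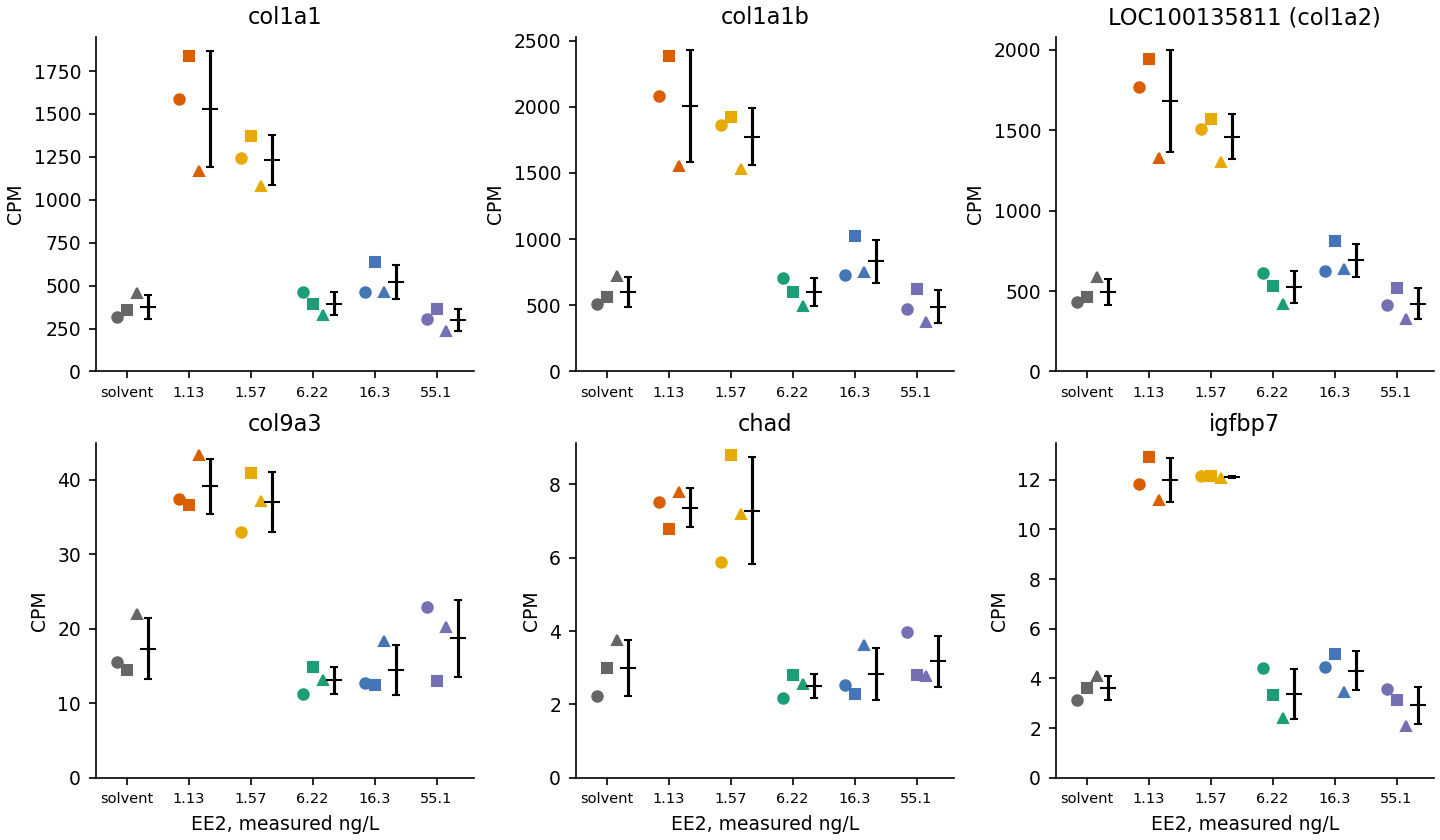
CPM of 6 transcripts in each of the 18 libraries, by measured EE2 concentration in ng/L: the type I collagen chains col1a1, col1a1b and LOC100135811 (col1a2), and below them col9a3, chad and igfbp7. Points are pools (circle A, square B, triangle C) and bars are mean ± SD of 3. In each panel the 6 points at 1.13 and 1.57 ng/L lie above all others. The other 4 groups overlap in part, though for col1a1, col1a1b and col1a2 all points at 16.3 ng/L lie above those of solvent.

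Around these fibres, 1 protease of the matrix belonged to the group. The transcript of mmp11b, a stromelysin-type matrix metalloproteinase, had 6.58, 5.37 and 5.39 CPM in solvent, 11.1, 15.7 and 8.37 CPM at 1.13 ng/L, 10.9, 9.5 and 10.7 CPM at 1.57 ng/L and 3.74 to 6.58 CPM over the 12 other libraries. The lowest of its 6 values, 1.13 ng/L pool C, lay close above the highest solvent pool. Together with the 3 collagen chains it makes 4 of the 18 transcripts on the matrix remodelling list. Without these 4, the summed CPM of the list was 201 to 202 in solvent, 257 to 326 at 1.13 ng/L, 269 to 288 at 1.57 ng/L and 152 to 194 over the libraries of the other 3 groups. The sum of the rest was thus also highest at the 2 low concentrations, but single transcripts differed. The collagen chaperone gene serpinh1a had 53.3 CPM in solvent and 57.5 and 54.6 CPM at 1.13 and 1.57 ng/L. A further transcript of this chaperone, hsp47, was held on the stress list. It had 48.4 ± 6.89 CPM in solvent, 68.6 ± 15.0 CPM at 1.13 ng/L and 77.0 ± 21.3 CPM at 1.57 ng/L (SD), and its lowest low-concentration library was 0.961 times the highest other. In edgeR's fit, 16 and 17 of the 18 tested transcripts of the matrix remodelling list lay above solvent at these concentrations. Of all tested transcripts 51.4% and 51.5% did. The list counts include the 4 members, whose direction the rule had set. The fibrillar collagen col5a2a, at 59.8 CPM in solvent, 108 and 95.1 CPM at 1.13 and 1.57 ng/L and 43.1 CPM at 55.1 ng/L, and the membrane-bound metalloproteinase mmp14b met the ratio but were kept out by the 55.1 ng/L condition.

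Cartilage and bone matrix gave 4 more members out of 19 transcripts on their list. The alpha 3 chain of type IX collagen, col9a3, had 15.6, 14.5 and 22 CPM in solvent, 37.5, 36.6 and 43.3 CPM at 1.13 ng/L and 33, 41 and 37.2 CPM at 1.57 ng/L. At 6.22, then 16.3, then 55.1 ng/L col9a3 had 11.3, 14.8 and 13.2 CPM, 12.8, 12.4 and 18.4 CPM and 22.9, 13 and 20.2 CPM. Unlike the type I chains, col9a3 had no pool at 16.3 ng/L above the highest solvent pool, and its highest value outside the 2 low concentrations was in 55.1 ng/L pool A.

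Chondroadherin, chad, a cartilage protein that binds collagen and cells, was at a lower level with the same shape, at 2.22, 3.0 and 3.75 CPM in solvent, 7.52, 6.78 and 7.8 CPM at 1.13 ng/L, 5.87, 8.79 and 7.18 CPM at 1.57 ng/L and 2.17 to 3.98 CPM in the 12 others. The ectonucleotidase gene entpd5a, which zebrafish need to mineralise bone, had 0.995, 1.18 and 1.17 CPM in solvent and 2.06 to 2.69 CPM in the 6 low-concentration libraries. In 6.22 ng/L pools entpd5a stood at 0.557, 0.521 and 0.561 CPM, under every solvent pool, a separation whose share over all transcripts was not counted.

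A transcript of the cartilage matrilin gene matn3a, XM_021611537.1, had 2.88 to 10.6 CPM in the 6 low-concentration libraries and 0 to 2.09 CPM in the other 12, with 2 of the 3 solvent pools at 0. Its means were 5.94 ± 4.12 CPM at 1.13 ng/L and 5.8 ± 2.27 CPM at 1.57 ng/L against 0.273 ± 0.474 CPM in solvent. The spread within groups is wide, and matn3a has 5 deposited transcripts between which reads can move. Summed over all 5, the member included, matn3a had means of 2.5 CPM in solvent, 12.5 CPM at 1.13 ng/L, 10.6 CPM at 1.57 ng/L, 2.24 CPM at 6.22 ng/L, 3.86 CPM at 16.3 ng/L and 6.65 CPM at 55.1 ng/L.

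The other transcripts of the cartilage and bone list summed to 333 to 393 CPM in solvent, 564 to 709 CPM at 1.13 ng/L, 647 to 705 CPM at 1.57 ng/L and 274 to 411 CPM at the 3 higher concentrations. Most of this sum came from sparc (225 CPM in solvent, 375 and 420 CPM at 1.13 and 1.57 ng/L) and col10a1a. The less abundant col9a1a (4.24, 9.06 and 5.30 CPM in these groups) and acanb (4.30, 9.28 and 4.74 CPM) stood near solvent at 1.57 ng/L. In edgeR's fit, 17 of the 18 tested transcripts of the list lay above solvent at each low concentration. The share of all tested transcripts above solvent was 51.4% (1.13 ng/L) and 51.5% (1.57 ng/L). The list count includes the 4 members, whose direction the rule had set. Some bone markers on the list met the ratio and the mean but stood under 0.75 times solvent at 55.1 ng/L. These were col10a1a, a collagen of hypertrophic cartilage and fish bone cells (91.9 CPM in solvent, 185 and 186 CPM at 1.13 and 1.57 ng/L, 38.4 CPM at 55.1 ng/L), the osteocalcin-like bglapl (1.89, 5.86, 5.42 and 1.05 CPM in the same groups) and spp1, osteopontin (6.26, 14.4, 14.8 and 4.27 CPM). The regulator of cartilage cells sox9 did not share the pattern, with 2.29 CPM in solvent, 2.49 CPM at 1.13 ng/L and 2.51 CPM at 1.57 ng/L.

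Other proteins secreted around cells or held at their surface also belonged. The insulin-like growth factor binding protein gene igfbp7 had 3.13, 3.62 and 4.12 CPM in solvent, 11.8, 12.9 and 11.2 CPM at 1.13 ng/L and 12.1, 12.1 and 12.1 CPM at 1.57 ng/L. Over the other 12 libraries igfbp7 ran from 2.1 to 5.0 CPM, so the gap between the sets was 2.23 times, the widest of any member with a symbol. Its relative igfbp5 was lower in excess but tighter, at 11.9 ± 0.17 CPM in solvent, 19.2 ± 0.437 CPM at 1.13 ng/L and 18.9 ± 0.453 CPM at 1.57 ng/L (SD, n = 3).

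The glypican gpc4, a heparan sulfate proteoglycan of the cell surface, had 8.5, 9.95 and 8.96 CPM in solvent, 17.3, 19.5 and 16.4 CPM at 1.13 ng/L and 16.8, 18.5 and 15.1 CPM at 1.57 ng/L. The olfactomedin-like secreted protein gene olfml3b had the smallest excess of the members named by symbol, at 1.57 and 1.38 times solvent, with 13.8, 12.8 and 13.7 CPM in solvent and 18.3 to 23.1 CPM in the 6. The cartilage intermediate layer protein gene cilp2 had 1.76, 1.82 and 2.05 CPM in solvent, 7.52, 9.41 and 5.05 CPM at 1.13 ng/L and 4.78, 6.06 and 5.42 CPM at 1.57 ng/L. One 6.22 ng/L pool, B, had 3.77 CPM of cilp2, above every solvent pool.

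Enzymes and membrane proteins made up most other members with a symbol, and 6 symbols that begin with si: or zmp: name genes with no known role. The calcium-activated protease gene capn2 had 49.9, 44.7 and 61.5 CPM in solvent, 111, 119 and 87 CPM at 1.13 ng/L and 103, 101 and 101 CPM at 1.57 ng/L, and the pools at 1.57 ng/L were nearly equal. The transcript named cathy, with the synonym CATZ and of the lysosomal cathepsin proteases, had 19.9, 16.8 and 17 CPM in solvent, 42.2, 42.5 and 39.1 CPM at 1.13 ng/L and 29.6, 26.4 and 26.2 CPM at 1.57 ng/L. In lipea, with the synonym lipe2, a hormone-sensitive lipase that frees fatty acids from stored fat, the values were 2.76, 2.37 and 2.28 CPM in solvent, 8.67, 10.7 and 8.48 CPM at 1.13 ng/L and 5.12, 4.94 and 4.15 CPM at 1.57 ng/L. In cathy and lipea all 3 pools at 1.57 ng/L lay under all 3 at 1.13 ng/L, while in capn2 and the collagens these pools overlap. Such a separation was seen in 30.9% of the members and in 9.18% of all tested transcripts, so it does not set cathy and lipea apart from the group.

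The tight-junction gene cldn1 had 1.38, 1.9 and 2.28 CPM in solvent, 5.08, 7.42 and 3.67 CPM at 1.13 ng/L and 4.81, 4.95 and 6.15 CPM at 1.57 ng/L, and was the only member among 6 transcripts on the epidermis list. On that list the keratin krt5, at 1604 CPM in solvent, 2441 CPM at 1.13 ng/L and 2906 CPM at 1.57 ng/L, was at 2257 CPM at 16.3 ng/L and did not meet the ratio. The tyrosine kinase-like styk1b had 0.81, 1.07 and 0.854 CPM in solvent and 3.32 to 7.42 CPM in the 6, 5.77 and 4.89 times solvent on average. The glycosyltransferase-like b3gnt2l had means of 1.33, 3.39 and 3.23 CPM in solvent, 1.13 and 1.57 ng/L, and esyt3, an extended synaptotagmin that tethers the endoplasmic reticulum to the cell membrane, 7.34, 14 and 13.7 CPM. For ntd5 the means were 4.12 CPM in solvent, 10.4 CPM at 1.13 ng/L and 6.63 CPM at 1.57 ng/L.

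**Figure D3:**
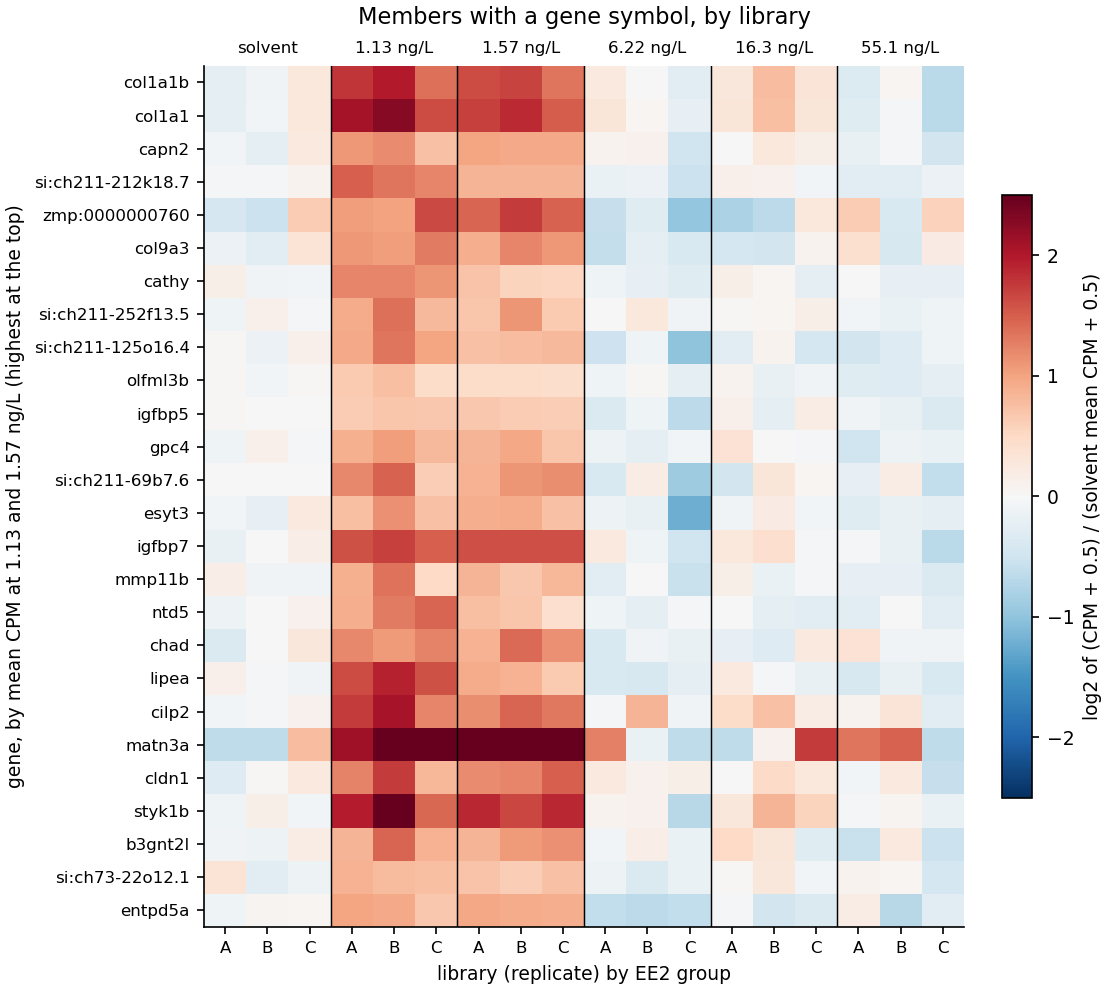
The 26 members with a gene symbol, 1 row each, ordered by mean CPM at 1.13 and 1.57 ng/L, in the 18 libraries. Colour is the log2 of CPM plus a pseudocount of 0.5 over the solvent mean plus the same pseudocount; the darkest shades are capped, which touches matn3a. The columns of 1.13 and 1.57 ng/L are red in every row, by the choice of the members, while lipea, cathy and ntd5 are paler at 1.57 ng/L and single squares of matn3a are red in other groups.

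Several of the most abundant members have no gene in the table used. XM_021572649.1 was the most abundant member, at 1392, 1451 and 1618 CPM in solvent, 3223, 3769.7 and 2765 CPM at 1.13 ng/L, 3061, 3229 and 2796 CPM at 1.57 ng/L and 1752, 2124 and 2033 CPM at 16.3 ng/L. This transcript and the 3 type I collagen chains together held 56.5% of the group's summed CPM in the 6 low-concentration libraries, and its mean TPM there was 780.3. XM_021620500.1 came next after the collagens, with 128, 124 and 179 CPM in solvent, 339 to 409.7 CPM in the 6 and 96 to 180.4 CPM in the 12. Below that, XM_021597994.1, XM_021601287.1, XM_021561862.1 and XM_021592001.1 had solvent means of 190.3, 171, 161 and 131 CPM and means at 1.13 ng/L of 359, 322, 286 and 241 CPM. Of the 3 non-coding members the most abundant was XR_002469112.1, at 82.6 ± 5.58 CPM in solvent, 178 ± 17.6 at 1.13 ng/L and 150.1 ± 13 at 1.57 ng/L. Only 15 of the 220 had a mean of at least 100 CPM in the 6 libraries, and 104 had less than 10 CPM.

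In 10 of the members, igfbp7 among them, the lowest of the 6 libraries was at least 2 times the highest of the 12, most of them at low levels. XM_021556433.1 had 3.6, 4.62 and 7.73 CPM in solvent, 36.9, 45 and 24.4 CPM at 1.13 ng/L, 26.9, 28.1 and 26.3 CPM at 1.57 ng/L and at most 9.6 CPM elsewhere. XM_021614312.1 had 2.45, 2.61 and 1.52 CPM in solvent, 16.8, 21.5 and 14.3 CPM at 1.13 ng/L and 11.7, 11.7 and 10.7 CPM at 1.57 ng/L. XM_021614307.1, XM_021559113.1 and XM_021611287.1 were 14.5, 5.51 and 10.8 times solvent at 1.13 ng/L and 8.73, 4.14 and 4.94 times at 1.57 ng/L. In these 5 transcripts the mean at 1.13 ng/L was above that at 1.57 ng/L. LOC110494234, at 0, 0 and 0.39 CPM in solvent, 3.23, 3.16 and 2.75 CPM at 1.13 ng/L and 1.13, 2.46 and 1.7 CPM at 1.57 ng/L, was also among them.

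Only 3 members were listed at 0 in every solvent pool, and 1 of these in all 12 libraries outside the 2 low concentrations. XM_021556396.1 was at 0 in all 12 other libraries and had 5.1, 3.63 and 1.73 CPM at 1.13 ng/L and 2.0, 2.51 and 2.04 CPM at 1.57 ng/L. Against a floor of 3 counts over the solvent group that is at least 50.2-fold and 31.0-fold higher. LOC110488749, transcript XM_021561093.1, was at 0 in solvent and had 4.24, 18.5 and 0.744 CPM at 1.13 ng/L and 8.47, 0.0894 and 3.51 CPM at 1.57 ng/L, a wide spread between pools. The gene itself was not silent in solvent. Summed over its 2 deposited transcripts it had means of 16.8 CPM in solvent, 29.1 CPM at 1.13 ng/L and 26.9 CPM at 1.57 ng/L, and the sum did not meet the rule. XM_021620538.1 was also at 0 in every solvent pool, with 11.2, 20.4 and 11.8 CPM at 1.13 ng/L, 2.78, 8.41 and 12.3 CPM at 1.57 ng/L and 1.34 CPM in 16.3 ng/L pool A. The floors cover counting error only, and kallisto can list a transcript at 0 when a near copy takes its reads.

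In 26 genes a member has further deposited transcripts, whose levels the rule did not use. Because kallisto divides reads between the transcripts of a gene, these are not independent of the member, and they are given as a description. In 21 of the 26 genes the other transcripts together reached a mean of 1 CPM in the 6 libraries or in the 12. Their mean was higher in the 6 libraries in 16 of these 21 genes (76.2%), beside 63.2% of the 47767 other transcripts of the series at that level. The median ratio of the 6 to the 12 libraries was 1.37 for them and 1.08 over those 47767. In the remaining 5 genes, esyt3 and ntd5 among them, the other transcripts were too low to compare.

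The other transcripts of LOC110496358 had a mean of 253 CPM in the 6 libraries and 274 CPM in the 12, while the member's share of the gene was 24.6 to 33.7% against 11.8 to 20.5%. For LOC110487066 the other transcripts had 11.6 and 12.1 CPM and the member's own ratio was 5.59. In LOC110486371 they had 7.47 and 7.43 CPM, with a ratio of 2.39 for the member. In these 3 genes the excess lay in the member transcript and was not seen in the rest of the gene. In matn3a the other 4 transcripts together had 5.72 CPM in the 6 libraries and 3.15 CPM in the 12. Those of LOC110504055 had 8.50 and 1.97 CPM, a ratio of 4.32 beside 4.57 for the member. In 5 of the 21 genes the other transcripts were lower in the 6 libraries, LOC110496358 and LOC110487066 among them. The rest of these were LOC110521612, with 2.84 CPM in the 6 and 3.96 CPM in the 12, LOC110520406, with 0.0106 and 1.08 CPM, and LOC110535623, with 3.7e-09 and 1.04 CPM. Whether reads moved between transcripts there was not tested. The genes named here and the level of 1 CPM were chosen after the values were seen.

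**Figure D4:**
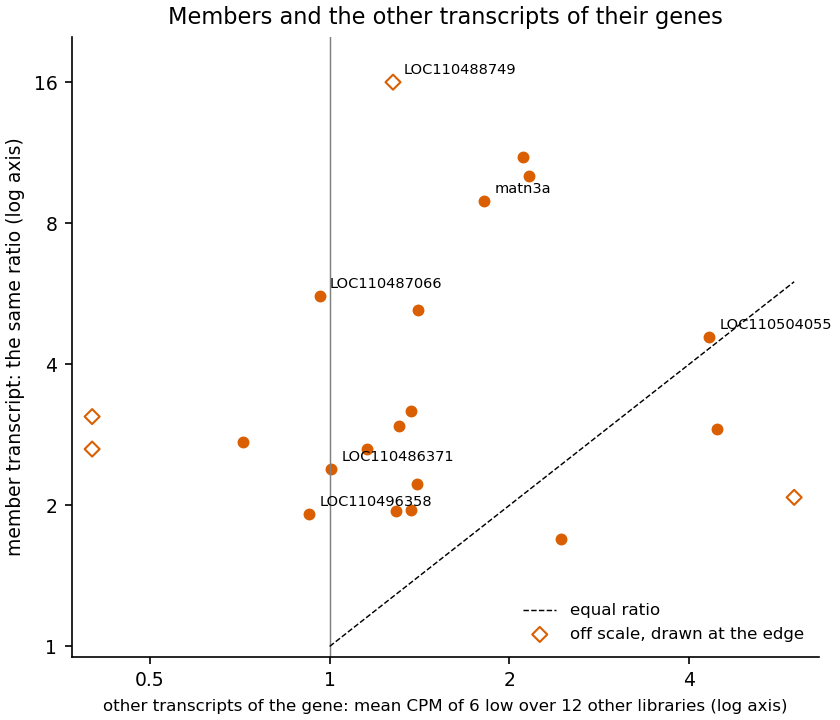
For the 21 genes whose other transcripts reached a mean of 1 CPM, the ratio of mean CPM in the 6 low-concentration libraries to that in the 12 others, for the other transcripts of the gene together (horizontal, log axis) and for the member transcript (vertical, log axis). The grey line marks a ratio of 1 and the dashed line equal ratios; open diamonds are off scale and drawn at the edge. LOC110496358, LOC110487066 and LOC110486371 lie at or near the grey line, with member ratios of 1.91, 5.59 and 2.39, while LOC110504055 lies near the dashed line.

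The rule set no order between 1.57 and 1.13 ng/L, or between solvent and 6.22 or 16.3 ng/L, and these 3 comparisons were tested. They are not wholly free of the rule, since its condition on 55.1 ng/L has the solvent mean as its base and so favours transcripts low in solvent. The ratio condition also limits them. A transcript that rose near its low-concentration level at 6.22 or 16.3 ng/L was kept out. So was any that fell near its solvent level at 1.57 ng/L. Large differences, and with them calls, were thus partly kept out in advance. Estimated counts were fitted per transcript with edgeR's quasi-likelihood test on all 18 libraries with TMM factors, and p-values were adjusted by Benjamini-Hochberg over the 59811 transcripts tested, with a threshold of 0.05. All 220 members passed the filter on low counts, which can rest on the 2 groups where they are high. The rule also favours transcripts with little spread within the 2 sets of libraries.

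Between the 2 low concentrations, 0 of the 220 were called, where 0.0234% of all tested transcripts (14) were called, and 27 (12.3%) had an unadjusted p under 0.05, beside 4.38% of all tested. The log2 difference of 1.57 against 1.13 ng/L was below 0 in 175 members and above 0 in 45, with a median of -0.16 beside -0.00 over all tested transcripts. On file totals all 3 pools at 1.57 ng/L lay under all 3 at 1.13 ng/L in 68 members (30.9%), beside 9.18% of all tested transcripts, in members whose spread within these groups the rule kept small. The smallest adjusted p was that of LOC110497560, with 120.0, 119.9 and 121 CPM at 1.13 ng/L, 71.9, 71.6 and 62.4 CPM at 1.57 ng/L and 32, 29.2 and 33.6 CPM in solvent. Its log2 difference was -0.73 (SE 0.13, adjusted p = 0.168 in edgeR). LOC110504055 had 44.4, 44.1 and 52.4 CPM and 21.6, 22.5 and 15.1 CPM in these groups, a log2 difference of -1.17 (SE 0.24, adjusted p = 0.3 in edgeR).

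With the Wald test of DESeq2 in place of edgeR, 10 of the 220 members (4.55%) were called lower at 1.57 than at 1.13 ng/L and none higher. Among them were lipea (log2 -0.91, adjusted p = 1.89e-05 in DESeq2), cathy (-0.52, 0.000822), LOC110497560 (-0.73, 1.29e-05), LOC110504055 (-1.17, 0.000483), LOC110503180 (-0.85, 0.00336) and si:ch211-212k18.7 (-0.44, 0.0161). The same tool called 460 transcripts in this comparison, 0.728% of those it gave an adjusted p, where edgeR called 14. For the collagens neither tool called a difference, and edgeR gave log2 values of -0.24 for col1a1 (SE 0.25) and -0.13 for col1a2 (SE 0.23), both with an adjusted p of 1. These SEs are about as large as the differences or larger, so the values allow a larger fall, no difference or a small rise.

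At 6.22 ng/L 0 of the 220 were called against solvent, where 0.0669% of all tested transcripts (40) were, and 11 (5.0%) had an unadjusted p under 0.05, beside 6.86% of all tested. DESeq2 also called 0 of the 220, where it called 633 transcripts, 1.07% of those it gave an adjusted p. The log2 differences were above 0 in 90 members and below 0 in 127, with a median of -0.04 beside -0.00 over all tested. Scaled to file totals instead, as the rule does, 46 members had a higher mean at 6.22 ng/L than in solvent and the median was -0.21, but all expressed transcripts had a median of -0.17 on that scale. With single libraries left out the edgeR median ran from -0.16 to 0.03, so its direction is not settled. The collagen chain col1a1 had a log2 difference of 0.22 (SE 0.25, adjusted p = 0.977 in edgeR), and entpd5a had -0.85 (SE 0.33, adjusted p = 0.683 in edgeR).

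At 16.3 ng/L 0 of the 220 were called in edgeR, where 0.234% of all tested (140) were, and 41 (18.6%) had an unadjusted p under 0.05, beside 9.67% of all tested. The log2 differences from solvent were above 0 in 200 members and below 0 in 18, with a median of 0.30 beside 0.01 over all tested transcripts. On file totals 158 of the 220 were higher at 16.3 ng/L, with a median of 0.13, where all expressed transcripts had a median of -0.15 and 30.6% were higher, so relative to the bulk of transcripts the members' median was close to 0.3 on either scale. Of the 4 groups outside the 2 low concentrations, 16.3 ng/L had the highest mean in 149 members, solvent in 53, 55.1 ng/L in 11 and 6.22 ng/L in 7. The 16.3 ng/L libraries shared their depth and effective-length gap with the 2 low concentrations, and the part of these traits in this shift was not tested.

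The collagen chains stood above that median at 16.3 ng/L. Their log2 differences from solvent were 0.65 for col1a1 (SE 0.25), 0.66 for col1a1b (SE 0.25) and 0.66 for col1a2 (SE 0.23), with adjusted p of 0.419, 0.423 and 0.37 in edgeR. For XM_021572649.1 it was 0.59 (SE 0.16, adjusted p = 0.208 in edgeR), the smallest adjusted p of the group. All 3 of its pools lay above all solvent pools, a separation whose share over all transcripts was not counted. DESeq2 called 4 of the 220 members (1.82%) at 16.3 ng/L, a share under the 2.47% (1350) of all transcripts with an adjusted p there. These 4 were higher, XM_021572649.1 (0.58, adjusted p = 0.0166 in DESeq2), XM_021559273.1 (0.73, 0.0449), XM_021562087.1 (0.79, 0.0255) and XM_021610972.1 (1.25, 0.0112). The cartilage and bone members had log2 differences of -0.10 for col9a3 (SE 0.23), 0.07 for chad (SE 0.25), -0.27 for entpd5a (SE 0.32) and 1.6 for matn3a (SE 1.73), none called, and whether they differ from the collagens was not tested.

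**Figure D5:**
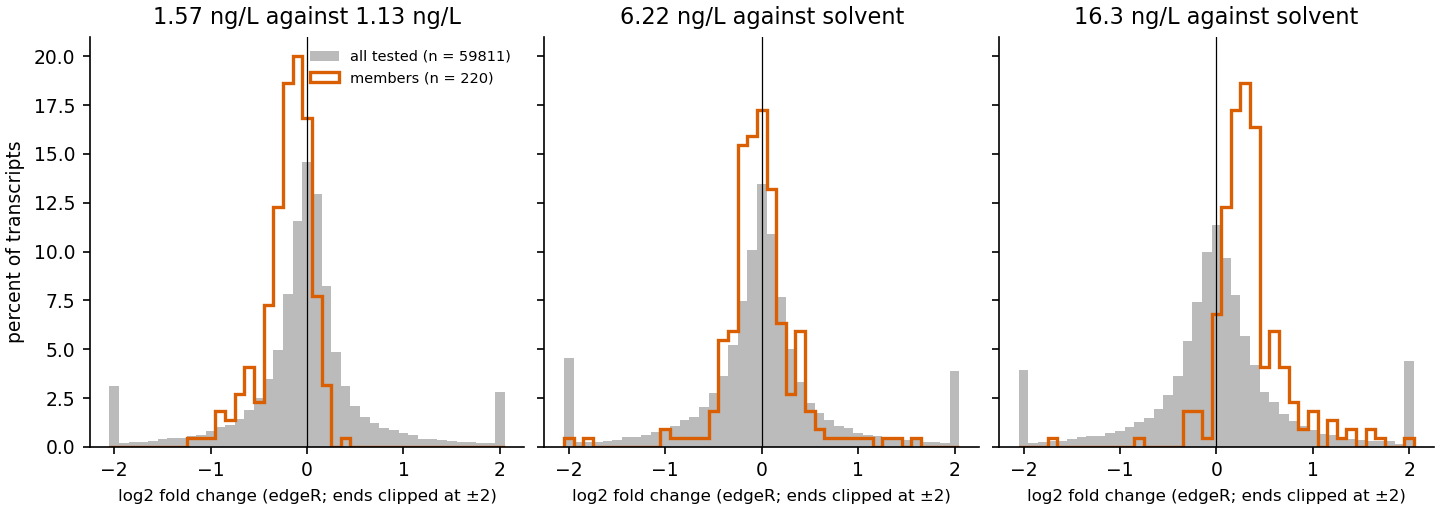
Distribution of edgeR log2 fold changes in the 3 comparisons that the rule did not order, as percent of transcripts per bin, for the 220 members (outline) and all 59811 tested transcripts (grey). Values past the ends are gathered in the end bins. The members' medians are -0.16 for 1.57 against 1.13 ng/L, -0.04 for 6.22 ng/L and 0.30 for 16.3 ng/L against solvent.

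In the comparisons that the rule did use, the same fit gives counts that describe the choice and test nothing. At 1.13 ng/L 178 of the 220 were called higher than solvent and 0 lower, beside 2.42% of all tested transcripts higher and 1.34% lower. At 1.57 ng/L the counts were 145 and 0, beside 1.17% and 0.505%. The members' median log2 difference was 1.19 at 1.13 ng/L and 1.05 at 1.57 ng/L. All these comparisons share the solvent pools. On the cartilage and bone list 8 of 18 tested transcripts, members included, were called higher at 1.13 ng/L and 6 at 1.57 ng/L, and on the matrix remodelling list 6 of 18 at each, with 0 lower on either list. In the 3 comparisons that the rule left unordered, 0 of the 18 on either list were called. Of all tested transcripts 0.0234%, 0.0669% and 0.234% were called there, shares too small for 18 transcripts to show a difference.

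The authors' deposited table of DESeq2 results covers 28438 transcripts and holds 165 of the 220. It rests on the same series, and the rule used the levels at 1.13, 1.57 and 55.1 ng/L against solvent. The authors' counts at these 3 concentrations therefore also describe the choice and are no separate support. In the authors' deposited table for 1.13 ng/L, 162 of the 165 were called higher and 0 lower, with a median log2 fold change of 1.14, and 9.41% of all its transcripts were called higher. For 1.57 ng/L the authors' deposited table gives 159 higher and 0 lower, with a median of 1.00, and calls 7.46% of all its transcripts higher. The authors' deposited tables call 0 of the 165 at 6.22 ng/L and 0 at 55.1 ng/L, with medians of -0.05 and -0.04, where they call 1.32% and 3.08% of all their transcripts. At 16.3 ng/L the authors' deposited table calls 3 higher, XM_021562087.1, XM_021572649.1 and XM_021610972.1, with a median of 0.26 over the 165. It calls 3.64% of all its transcripts there.

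Of the 15 lists of pathway and cell type genes, 12 held no member. Among these 12, called higher at 1.13 and 1.57 ng/L were 8 and 5 of 27 tested lysosome transcripts, 2 and 1 of 14 for lipid transport, 2 and 0 of 11 for hepatocytes, 2 and 0 of 28 for stress, 1 and 2 of 12 for the estrogen response and 0 and 1 of 6 for xenobiotic enzymes. No transcript of the erythrocyte, skeletal muscle, immune and cell cycle lists was called in either, and 1 neural transcript was called lower at 1.13 ng/L. Of all tested transcripts 2.42% were called higher and 1.34% lower at 1.13 ng/L, and 1.17% and 0.505% at 1.57 ng/L. These shares are too small for 0 calls on a short list to show a difference. Cell cycle transcripts summed to 343 to 352 CPM in solvent, 390 to 439 CPM at 1.13 ng/L and 355 to 401 CPM at 1.57 ng/L. Neural sums were 314 to 381, 236 to 288 and 252 to 313 CPM in these groups. Macrophage and osteoclast transcripts summed to 33.2 to 39.5 CPM in solvent and 31.2 to 48.0 CPM in the 6 low-concentration libraries, ranges that overlap, and 0 of 12 tested were called at either low concentration. Lysosome transcripts were higher at the 2 low concentrations, at 559 to 651 CPM in solvent, 1070 to 1143 CPM at 1.13 ng/L and 796 to 818 CPM at 1.57 ng/L, and 0 of the 27 were members. The list does not hold cathy, which is a lysosomal protease and a member. Of the 27, gm2a and pla2g15 met the ratio and the mean, with means over the 6 libraries of 45.0 and 199.9 CPM, but stood at 0.702 and 0.258 times solvent at 55.1 ng/L. The apolipoprotein transcript apoe met them too, with 82.2 CPM over the 6 and 0.597 times solvent at 55.1 ng/L. Skeletal muscle transcripts summed to 10444 to 11455 CPM in solvent, 9252 to 10287 CPM at 1.13 ng/L and 10063 to 11413 CPM at 1.57 ng/L. At the 3 higher concentrations muscle ran from 11077 to 13972 CPM, and its part in the members' levels was not tested.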

How the data were processed

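Strand-specific poly(A) libraries of 18 pools were used, 3 in each of 6 groups, grouped by the labels. Trimmomatic 0.38, kallisto and DESeq2 were the tools that made the files, per the submitters' processing notes. The genome build and transcript index are not given in the sources used here. The deposited files list estimated counts per transcript, per the file headers, and these were used for CPM and for the tests. The deposited TPM values, scaled to length by the authors per the file headers, were used to compare levels between transcripts, and the deposited lengths and effective lengths to describe the libraries. The authors' deposited DESeq2 tables hold, per the file headers, a mean of normalised counts (signal), a log2 fold change and an adjusted p-value. They are named wherever used. A deposited table that combines the estimated counts was not used.

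CPM was each estimated count over its file's total. For tests, estimated counts were rounded, filtered with filterByExpr, scaled with TMM and fitted per transcript with edgeR 4.0.16 in R 4.3.3 (glmQLFit, glmQLFTest) in 1 model of all 18 libraries with 12 residual degrees of freedom. Benjamini-Hochberg adjustment ran over all 59811 tested transcripts, and adjusted p-values under 0.05 were called. DESeq2 1.42.0 was an alternative. The fits were tested on simulated data. Library totals of 12658946 to 32851570 estimated counts limit the precision of transcripts near 2 CPM most.

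The members and the 15 gene lists were chosen with earlier results of these data known. Gene names came from a RefSeq table of assembly USDA_OmykA_1.1, joined on transcript accession with the version dropped, which paired 42410 transcripts (53.5%). Its coordinates served only to order the protein-coding genes when neighbours were counted. List genes were matched by symbol, with or without a final a or b (a choice made after the files were seen), or by synonym for locus-numbered genes. Named in the text were the 10 members with the highest mean, the 10 with the widest gap, up to 20 with a symbol, list members, the 3 nearest the ratio on each side and up to 5 called in each comparison. Also named after their values were seen were members called by DESeq2 or the authors, genes that differ from their member, and list transcripts that set a limit. The alternatives were other ratios, means, scalings and filters, gene sums, a replicate block, only the groups compared, removal of a length trend, and each library left out in turn.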

Additional observations from a re-analysis of the deposited data

How the results depend on the processing

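The count of 220 transcripts became 1281 with a ratio of at least 1, 57 with a ratio of at least 1.5 and 430 without the condition on 55.1 ng/L. It lay between 162 and 258 with another minimum mean, TMM factors, TPM or gene sums, and between 194 and 306 with each library left out in turn. Similar totals held partly different transcripts. Of the 220, 166 were among the 258 found with TPM and 101 among the 162 found with TMM factors. Of the 26 genes with a member and further deposited transcripts, only 7 met the rule as gene sums. In 21 of these 26 the lowest low-concentration sum was above the highest other sum. Calls among the 220 were 0 in all 3 tested comparisons with each library left out (range 0 to 0) and under every alternative run in edgeR, but DESeq2 called 10 for 1.57 against 1.13 ng/L and 4 for 16.3 ng/L. Over all transcripts, edgeR called 14, 40 and 140 in the comparisons of 1.57 with 1.13, 6.22 with solvent and 16.3 ng/L with solvent. These became 460, 633 and 1350 in DESeq2 and 0, 4 and 44 when only the groups compared entered the fit, which leaves fewer libraries to estimate the spread. With each library left out they ran from 11 to 19, from 34 to 74 and from 89 to 275. The 6.22 ng/L count was 73 without solvent pool C, 74 without 6.22 ng/L pool B and 62 without pool C, and the 16.3 ng/L count was 89 without solvent pool B, 275 without solvent pool C and 93 without 16.3 ng/L pool C; the cause was not tested. The members' median log2 difference ran from -0.28 (without 1.13 ng/L pool C) to -0.07 (without 1.13 ng/L pool B) for 1.57 against 1.13 ng/L, from -0.16 to 0.03 for 6.22 ng/L and from 0.20 to 0.38 for 16.3 ng/L.

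With the replicate letter as a replicate block, edgeR called 12, 28 and 96 transcripts in these 3 comparisons and 0 members. No pairing by letter was seen, as deviations of same-letter libraries correlated at -0.0233 to 0.0394 across transcripts, beside -0.0607 to 0.0520 for other letters. With 3 pools per group this cannot show whether a letter marks a shared batch. Depth limits what can be said of the 104 members under 10 CPM.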
